A study of Oryza sativa with 30 samples.

Results

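The leaves of rice (Oryza sativa) seedlings labelled as atr mutants were compared 6 h after 70 Gy of gamma rays with untreated atr leaves, 1 RNA sequencing library on each side. These are 2 of the 30 libraries of the study. Of the 38978 genes listed for both libraries, 15754 were at 5 FPKM or more in at least 1 of them, and these are the genes described. FPKM is the number of reads of a gene per kilobase of its length, scaled to library size, and every difference given here is log2(FPKM + 1) after 70 Gy minus log2(FPKM + 1) in the control. The seedlings were 14 d old and had been raised in tubes on 0.5-strength Murashige and Skoog medium at 26 °C with 13 h of light and 11 h of dark. Radiation came from 60Co at 1 Gy per min. The labels give neither the atr allele nor the background in which it lies. Set beside atr are 2 lines given the same dose and sampled 6 h after it: ATM, labelled as wild type, and the atm-1 mutant. Each has 3 irradiated and 3 control libraries. Also used are untreated leaves of a top6a3 mutant (3 libraries) and of TOP6A3, labelled as wild type (1 library). Replicates are not stated to be separate plants.

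ATR and ATM are large related protein kinases that start the response to damaged DNA. ATM is activated mainly by double-strand breaks, while ATR answers single-stranded DNA at stalled replication forks and at breaks that have been trimmed. In plants both act largely through SOG1, a NAC transcription factor that turns on genes for DNA repair, nucleotide supply and cell-cycle arrest.

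With 1 library a side there is no replicate error within atr and no test was made. The 3 ATM control libraries served as the noise scale: a gene was called past the limit when its difference was 1 or more in size, which is 2-fold on this scale, and also larger than the largest difference between any 2 of those controls for the same gene. The median of that largest difference was 0.46. Among the controls, 3.83% of genes lay 1 or more apart between replicates 1 and 3, and 11.7% and 12.3% between replicate 2 and the others, against 22% between the irradiated and the control atr library. For 767 genes (4.87%) that were under 1 FPKM in all 12 ATM and atm-1 libraries this noise scale is close to 0 and sets no bound. The recovered reads were 14509879 in the irradiated and 15884069 in the control atr library, with 25054 and 27308 genes detected, and 10.8% and 16.8% of those had 1 to 10 reads. That share was 1.70% in replicate 3 of irradiated ATM and 1.53% in replicate 1 of the atm-1 controls, with 19798 and 20514 genes listed at 0, so these libraries stood apart and values are also given without them. Dose and deposited table coincide, and cannot be told apart.

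The gene named in the label was read first. ATR (Os06g0724700) stood at 1.12 FPKM (40 reads) in irradiated and 0.206 FPKM (7 reads) in control atr leaves, both under the minimum. In the ATM line it had levels of 1.45, 2.87 and 4.33 FPKM after 70 Gy, against 2.47, 1.95 and 3.13 FPKM in the controls. Both atr values were thus below all 6 of the ATM line. Other lines reached as low, however: ATR was at 1.19, 1.94 and 1.11 FPKM in the top6a3 controls, and at 1.65, 1.93 and 2.89 FPKM in irradiated atm-1 leaves and 0, 5.23 and 3.51 FPKM in atm-1 controls. ATM (Os01g0106700) was at 5.10 FPKM in irradiated and 6.24 FPKM in control atr leaves, KU80 (Os03g0856200), which binds DNA ends, at 11.8 and 11.4 FPKM, and TOP6B (Os09g0279600), a subunit of DNA topoisomerase VI, at 14.4 and 18.5 FPKM. None of these passed the limit. The library labelled TOP6A3 control, given as wild type, held 1899 FPKM of OsTOP6A3 (Os03g0284800) and 180 FPKM of TOP6B, against 2.21 to 7.39 FPKM and 2.70 to 18.5 FPKM in the atr, ATM, atm-1 and top6a3 libraries, which goes against that label. The leaf label was met by the control library, where light-harvesting genes summed to 6449 FPKM, although the same genes summed to 12570 to 15023 FPKM in the ATM controls.

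After 70 Gy, 991 genes (6.29%) were higher and 1964 genes (12.5%) were lower past the limit, of 15754. These shares are the background for the counts of each gene list below. The median over all genes was -0.03. The plot of all measured genes shows both sides. Differences of 3 or more were reached by 70 of the higher and 121 of the lower genes. Another 215 genes that were 1 or more higher and 302 that were 1 or more lower lay within the spread of the ATM controls. Just inside the difference of 1, within 0.1, lay 337 genes, and just outside it lay 578. The balance depended on scaling: the FPKM values summed to 567460 in the irradiated and 670001 in the control library, and when both were brought to the same sum the median moved to 0.20 and the split became 1623 higher and 1505 lower.

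**Figure D1:**
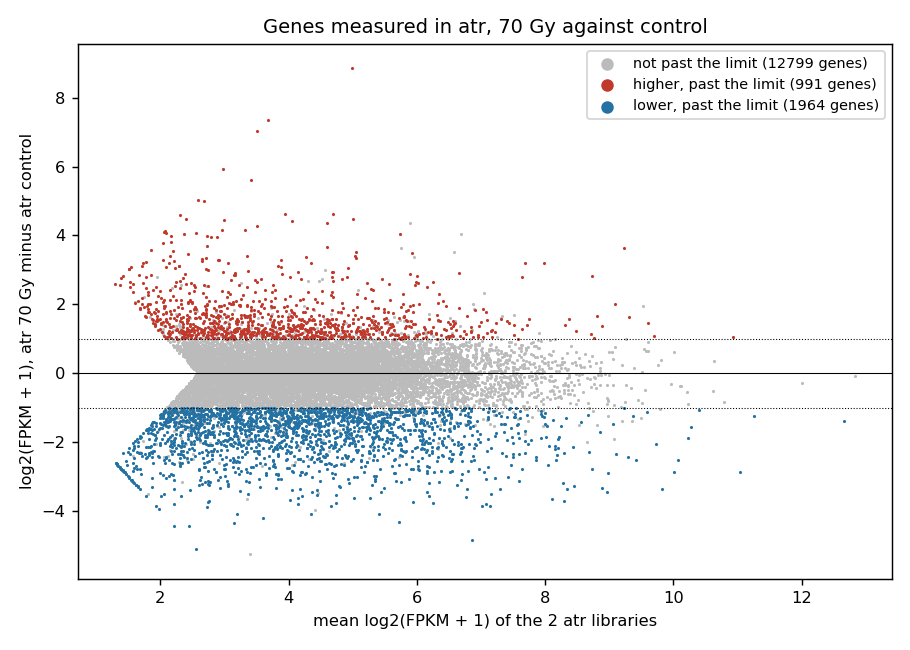
Each point is 1 of the 15754 genes, with the mean log2(FPKM + 1) of both atr libraries on the x axis and the irradiated minus the control value on the y axis. Red marks the 991 higher and blue the 1964 lower genes past the limit; dotted lines mark differences of 1 and -1, and grey points beyond them lay within the spread of the ATM controls.

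Several genes for nucleotide supply and DNA repair were far higher in the irradiated atr leaves. PARP2A (Os01g0351200, on chromosome 1 between 14047844 and 14054909 in the authors' coordinates, whose build is unnamed), which adds ADP-ribose chains at DNA breaks, was at 49.5 FPKM in irradiated and 1.58 FPKM in control atr leaves, a difference of 4.29. In ATM the same gene had levels of 114, 85.9 and 37.0 FPKM after 70 Gy, against 1.38, 1.59 and 1.53 FPKM in controls. In atm-1 it was at 1.49, 2.06 and 1.05 FPKM after 70 Gy, against 0, 0.982 and 1.89 FPKM in controls, so the atm-1 groups overlapped. PARP2A was the only 1 of 7 measured PARP genes past the limit in atr, and 4 of the 7 had a difference below 0. Over the 7 lists of DNA damage genes, 12 of the 56 measured members were higher past the limit and 0 were lower, with a median of 0.30. Of all genes, 6.29% were higher and 12.5% lower.

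Ribonucleotide reductase makes deoxynucleotides for DNA synthesis. Its small subunit ST1 (Os06g0257450, chromosome 6, 8230555 to 8232480) was at 106 FPKM in irradiated and 9.17 FPKM in control atr leaves, a difference of 3.39. ATM leaves had 2067, 1953 and 795 FPKM of ST1 after 70 Gy, against 39.1, 25.0 and 26.5 FPKM in controls, so the single irradiated atr value was below all 3 irradiated ATM values, and the atr control below all 3 ATM controls. RNRS2 (Os06g0127900), another small subunit, was at 22.4 FPKM in irradiated and 1.41 FPKM in control atr leaves, against 300, 325 and 63.4 FPKM in irradiated ATM leaves. The large subunit V3 (Os06g0168600) was at 7.77 FPKM after 70 Gy and 4.23 FPKM in the control, a difference of 0.75 that did not reach the limit. In ATM V3 had levels of 80.7, 56.2 and 27.4 FPKM after 70 Gy, against 5.46, 5.14 and 4.55 FPKM in controls. All 3 subunits therefore lay lower in irradiated atr leaves than in any irradiated ATM library, a gap that 1 atr library cannot test. In atm-1 ST1 was at 39.7, 45.5 and 46.9 FPKM after 70 Gy, against 21.3, 27.6 and 36.8 FPKM in controls, without overlap. The atm-1 groups overlapped for RNRS2 and V3. Untreated top6a3 leaves had 10.3, 13.9 and 11.1 FPKM of ST1, also below the ATM controls.

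Among genes of homologous recombination, 3 of 10 were higher. RILIM15B (Os11g0146800), annotated as a homolog of the meiotic recombinase DMC1, was at 28.5 FPKM after 70 Gy and 5.54 FPKM in the atr control, and its close relative DMC1A (Os12g0143800) at 12.3 and 1.52 FPKM. Reads of such near-identical genes can be split between copies by the authors' counting, so the separate values of these members are uncertain. The break sensors MRE11 (Os04g0635900), at 14.0 FPKM after 70 Gy and 13.5 FPKM in the control, and Rad50 (Os02g0497500), at 8.66 and 6.83 FPKM, were not past the limit.

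End joining had 2 of 7 members higher. Os04g0403400, which has a tyrosyl-DNA phosphodiesterase domain, was at 31.9 FPKM in irradiated and 0.84 FPKM in control atr leaves. Os01g0881400, annotated as artemis, a nuclease that in humans trims DNA ends before they are joined, was at 61.6 FPKM after 70 Gy and 4.99 FPKM in the control, while ATM leaves had 46.2, 39.3 and 13.4 FPKM after 70 Gy and 3.33, 2.55 and 2.10 FPKM in controls. The irradiated atr value of this gene was above all 3 irradiated ATM values. The ligase OsLig4 (Os04g0606450), at 27.6 FPKM after 70 Gy and 28.4 FPKM in the control, was not past the limit.

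OsMSH5 (Os05g0498300), a mismatch-repair relative that acts in meiotic crossing over, was at 24.3 FPKM in irradiated and 1.75 FPKM in control atr leaves, the only called member of 6 in its list. Its partner OsMSH4 (Os07g0486000) was at 10.9 FPKM after 70 Gy and 14.0 FPKM in the control. Of 16 excision repair genes, 0 passed the limit in either direction, and their differences ran from -0.64 to 0.94. The medians of the excision repair (-0.05), mismatch repair (-0.09) and PARP (-0.05) lists turn positive when the libraries are brought to the same FPKM sum.

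Checkpoint and signalling genes had 3 of 7 members higher. ONAC050 (Os02g0594800), which carries the same description as SOG1 of Arabidopsis (NAC domain-containing protein 8), was at 17.8 FPKM in irradiated and 2.84 FPKM in control atr leaves, against 32.8, 28.3 and 37.6 FPKM in irradiated ATM leaves and 1.00, 0.337 and 1.16 FPKM in ATM controls. Os03g0242100, annotated as RAD17, the loader of the checkpoint clamp, was at 19.8 FPKM after 70 Gy and 4.81 FPKM in the atr control. BET1 (Os04g0477300), a further gene described as NAC domain-containing protein 8, was at 22.7 and 7.82 FPKM, while Os06g0267500 of the same description stood at 22.3 and 15.7 FPKM and was not past the limit.

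**Figure D2:**
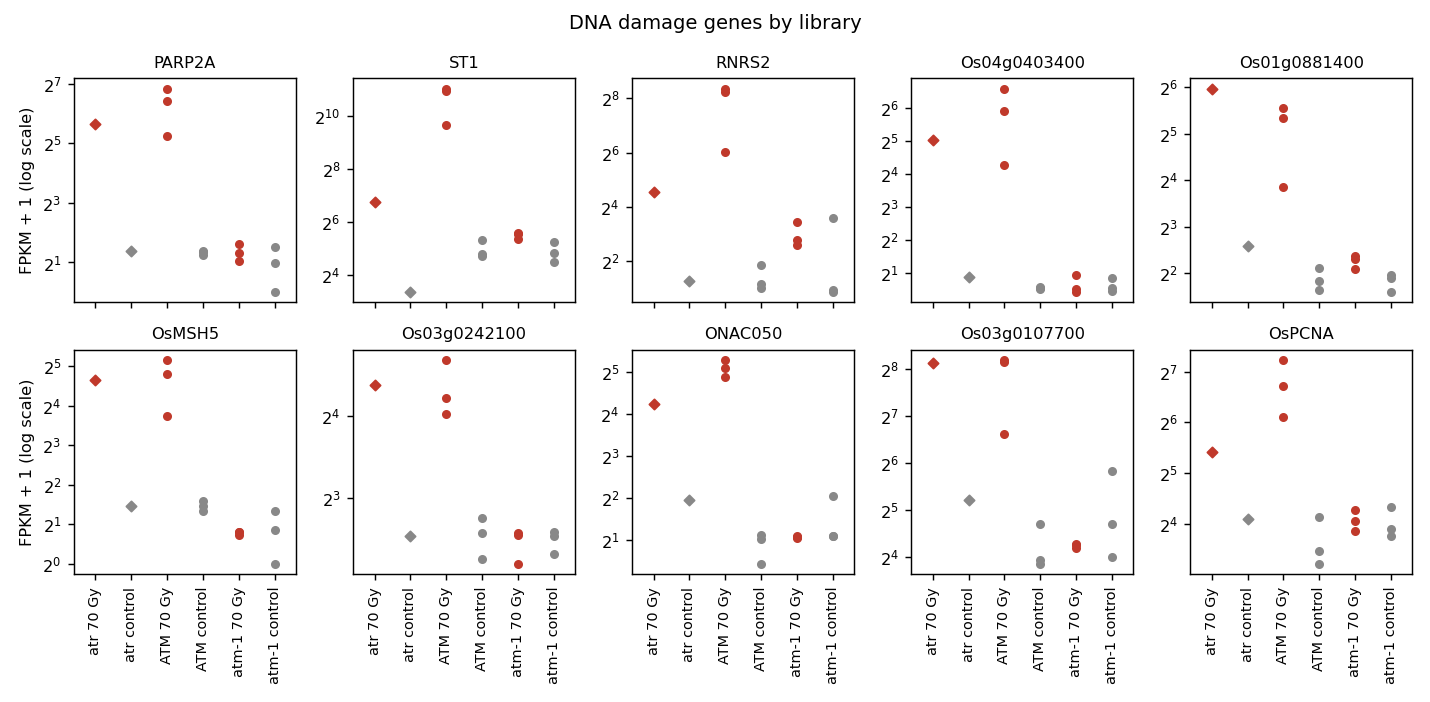
FPKM + 1 on a log scale for 10 DNA damage and cell-cycle genes, 1 panel each, with irradiated libraries in red and controls in grey, atr as a diamond and each ATM and atm-1 library as a circle. Os04g0403400 has a tyrosyl-DNA phosphodiesterase domain, Os01g0881400 is artemis, Os03g0242100 is RAD17 and Os03g0107700 is a kinase inhibitor. In each panel the irradiated atr library lies above its control, as the 3 irradiated ATM libraries lie above theirs; PARP2A, for example, stood at 49.5 FPKM in irradiated and 1.58 FPKM in control atr leaves.

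Cell-cycle genes moved in both directions, beside 6.29% higher and 12.5% lower among all genes. Os03g0107700, annotated as a cyclin-dependent protein kinase inhibitor, was at 278 FPKM in irradiated and 35.9 FPKM in control atr leaves, a difference of 2.92. The gene was at 280, 289 and 97.7 FPKM in irradiated ATM leaves and at 13.5, 14.3 and 25.1 FPKM in ATM controls. OsiICK6 (Os10g0471700), a cyclin-dependent kinase inhibitor of another group, was lower, at 17.2 FPKM after 70 Gy and 67.8 FPKM in the control. OsPCNA (Os02g0805200), the sliding clamp of DNA polymerase, was at 41.8 FPKM in irradiated and 16.1 FPKM in control atr leaves, against 148, 105 and 68.4 FPKM in irradiated ATM leaves. Only OsPCNA and the GINS subunit Os05g0143400, at 17.8 and 7.52 FPKM, were past the limit of 20 replication genes, whose median was 0.48. The D-type cyclin CycD1 (Os09g0382300) was at 1.24 FPKM after 70 Gy and 10.6 FPKM in the control, and it and CycD5 (Os03g0617500), at 1.26 and 7.87 FPKM, were the 2 lower members of 10 cyclins and mitotic kinases. Among 36 histone genes, 2 were higher and 1, the linker histone H1 (Os04g0253000, 67.6 and 218 FPKM), was lower, with a median of -0.33. Untreated leaves had 76.4, 40.5 and 59.3 FPKM of this H1 gene in top6a3 and 155, 270 and 151 FPKM in ATM.

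Photosynthesis genes made up the broadest block of lower transcripts. Over 9 lists of photosynthesis and chloroplast ribosome genes, 142 of 183 measured members were lower past the limit and 0 were higher, with a median of -2.13 beside -0.03 for all genes. Members under 5 FPKM in both libraries were not measured, such as 4 of 20 light-harvesting and 32 of 75 chloroplast ribosome genes. Together the 183 genes summed to 11821 FPKM in irradiated and 62609 FPKM in control atr leaves, or 2.08% and 9.34% of all FPKM. In leaf tissue, fewer mesophyll cells and less of a transcript per cell cannot be told apart.

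Light-harvesting proteins hold the antenna chlorophyll around the photosystems. Their list had 15 of 16 measured genes lower, with a median of -2.82 and a sum of 894 FPKM in irradiated and 6449 FPKM in control atr leaves. CP29 (Os07g0558400, chromosome 7, 22316343 to 22317935), one of the minor antenna proteins, was at 86.1 FPKM after 70 Gy and 1133 FPKM in the atr control, a 13.2-fold lower level. Irradiated ATM leaves had 1512, 1725 and 3122 FPKM of CP29 and ATM controls 2105, 1614 and 2268 FPKM, so the ATM groups overlapped, and the irradiated atr value lay below all of them. Lhcb1.1 (Os01g0720500), of the main antenna, was at 9.34 FPKM in irradiated and 174 FPKM in control atr leaves, a difference of -4.09. Untreated leaves varied widely in Lhcb1.1, with 130, 40.0 and 169 FPKM in ATM and 88.2, 1.77 and 130 FPKM in atm-1. Top6a3 controls had 825, 3732 and 1487 FPKM and the library labelled TOP6A3 1.48 FPKM, so the irradiated atr value lay within this range. CabE (Os09g0296800), at 25.5 FPKM after 70 Gy and 35.2 FPKM in the control, was the 1 member not past the limit. Os03g0165375, at 2.65 and 11.2 FPKM, was listed at 0 in all ATM and atm-1 libraries and so had a noise scale of 0. Some antenna genes are near-identical copies, so their separate values are uncertain where reads could be shared.

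Photosystem I, which drives electrons to ferredoxin, had 9 of 9 genes lower, with a median of -2.70. PsaK (Os07g0148900) was at 101 FPKM in irradiated and 1039 FPKM in control atr leaves, and PsaG (Os09g0481200) at 102 and 938 FPKM. PsaN (Os12g0189400), at 18.3 and 124 FPKM, passed narrowly, since its difference of -2.70 was set against 2.68 between ATM controls. In photosystem II, which splits water, 17 of 24 genes were lower, with a median of -1.96. PsbO (Os01g0501800), of the oxygen-evolving complex, was at 150 FPKM in irradiated and 1657 FPKM in control atr leaves, and Os03g0333400, annotated as the repair protein PSB27, at 33.1 and 493 FPKM. PSBS1 (Os01g0869800), which dissipates excess light as heat, was at 415 and 1740 FPKM, while PSBS2 (Os04g0690800), at 145 and 280 FPKM, was not past the limit. The photosynthetic NDH complex, which carries cyclic electron flow, had 17 of 19 genes lower and a median of -2.01. Electron carriers and ATP synthase had 6 of 12 lower and a median of -1.19. Plastocyanin (OsPC, Os06g0101600) was at 318 and 890 FPKM, whereas the leaf ferredoxin-NADP reductase OsLFNR1 (Os02g0103800) was at 38.6 and 41.4 FPKM.

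Carbon fixation genes were lower to a like degree: 20 of 25 Calvin cycle genes, with a median of -2.35. The Rubisco small-subunit gene RbcS3 (Os12g0291100) was at 773 FPKM in irradiated and 5707 FPKM in control atr leaves, and RBCS (Os12g0274700) at 35.9 and 538 FPKM. These copies share much sequence and are uncertain as single genes. BETACA1 (Os01g0639900), a chloroplast carbonic anhydrase that supplies carbon dioxide, was at 281 FPKM in irradiated and 2887 FPKM in control atr leaves. ATM leaves had 2565, 2739 and 2254 FPKM of BETACA1 after 70 Gy and 4906, 4896 and 5117 FPKM in controls. RbcS1 (Os02g0152400), at 7.64 FPKM after 70 Gy and 7.08 FPKM in the control, was among the 5 members not past the limit. Photorespiration, which recovers the product of Rubisco's reaction with oxygen, had 7 of 14 genes lower, led by the aminomethyltransferase Amt (Os04g0623800) at 36.5 and 286 FPKM.

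Chlorophyll synthesis had 14 of 21 genes lower, with a median of -2.06. YGL1 (Os05g0349700), chlorophyll synthase, was at 18.2 FPKM in irradiated and 101 FPKM in control atr leaves, and OsChlH (Os03g0323200), a subunit of magnesium chelatase, at 8.73 and 41.2 FPKM. The nuclear genes for chloroplast ribosomal proteins had 37 of 43 members lower and a median of -2.14, such as Os05g0568300 (L12) at 4.36 and 62.3 FPKM. By contrast the cytosolic ribosome had 7 of 191 members higher and 12 lower, with a median of -0.27. Of the 1135 measured genes annotated as chloroplastic, 421 were lower and 34 higher, and outside the 9 lists the counts were 287 and 34 of 966, with a median of -0.52. The 14619 genes without that annotation had 957 higher and 1543 lower and a median of 0.00. Of 452 genes annotated as mitochondrial, 33 were higher and 23 lower, with a median of 0.13. Pentatricopeptide repeat proteins, which process organelle RNA, had 33 of 89 lower and 1 higher.

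**Figure D3:**
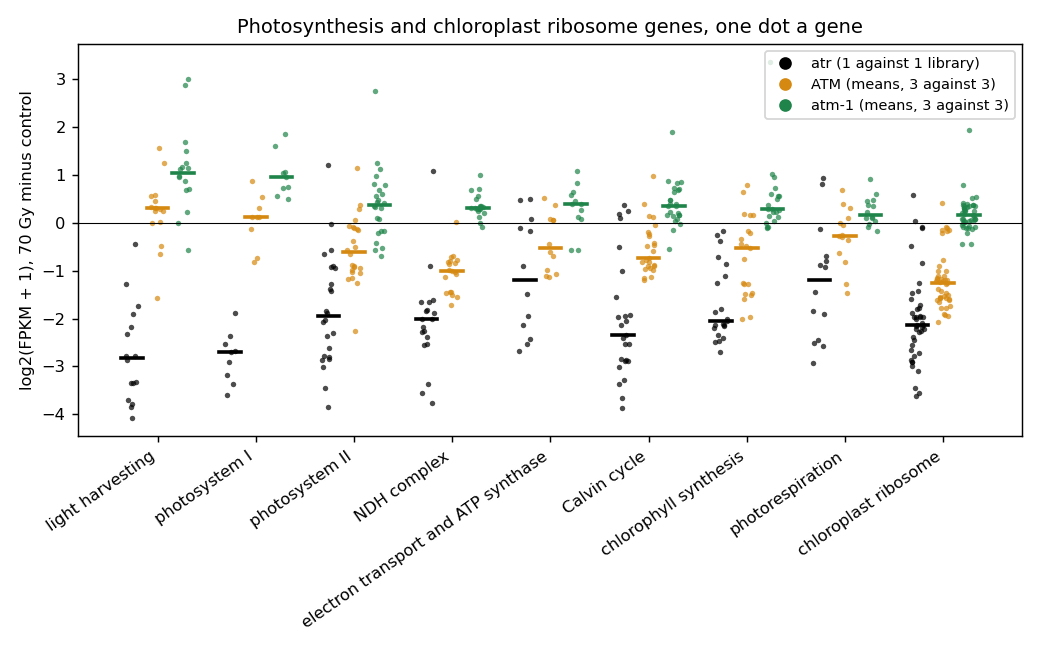
Each dot is a gene of 1 of the 9 lists, placed by its log2(FPKM + 1) difference, 70 Gy minus control, in atr (black, 1 library a side), ATM (orange, means of 3 libraries a side) and atm-1 (green, likewise); bars are list medians. The atr medians run from -2.82 for light harvesting to -1.18 for photorespiration, below the ATM and atm-1 medians in every list shown.

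Regulators of chloroplast genes and the clock were mostly within the limit. OsGLK1 (Os06g0348800), a transcription factor that promotes chloroplast genes, was at 6.29 FPKM in irradiated and 11.4 FPKM in control atr leaves, and GLK2 (Os01g0239000) at 48.1 and 47.7 FPKM, and both were within the limit. Of 127 plastid-encoded genes only 3 were measured, with a median of -1.94. Of these psaC was at 115 FPKM in irradiated and 92.1 FPKM in control atr leaves, and rps16 at 10.9 FPKM (8 reads) and 44.6 FPKM (31 reads), neither past the limit. The third, tRNA-Lys (UUU), was lower, listed at 0 after 70 Gy and at 8.79 FPKM (11 reads) in the control, with a difference of -3.29 set against 3.21 between ATM controls. None of 9 circadian clock genes passed the limit, and their median was 0.01. GI (Os01g0182600), at 447 FPKM after 70 Gy and 387 FPKM in the control, and CCA1 (Os08g0157600), at 47.3 and 52.9 FPKM, are examples. Libraries of the other lines differed in CCA1, however, also within a line. It was at 7.11, 2.78 and 8.90 FPKM in ATM controls and at 5.94, 12.1 and 58.6 FPKM in irradiated ATM leaves. In the top6a3 controls it was at 98.4, 137 and 103 FPKM, and in the library labelled TOP6A3 at 50.2 FPKM. Controls of atm-1 had 153, 9.52 and 12.2 FPKM of CCA1, and irradiated atm-1 leaves 13.0, 7.01 and 9.62 FPKM. The 58.6 and 153 FPKM came from the libraries that stood apart. Both atr values of CCA1 thus lay above all 3 ATM controls, and what sets the libraries apart was not tested.

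The median of the light-harvesting genes was not lower in the other lines. It was 0.12, 0.03 and 0.65 in the ATM libraries after 70 Gy, each against the mean of the ATM controls, and 1.23, 1.40 and 0.51 in the atm-1 libraries, against -2.82 in atr. One ATM control differed from another by a median of up to 0.25 for this list. Single members did fall in ATM: Lhca6 (Os09g0439500), at 5.64 FPKM in irradiated and 94.5 FPKM in control atr leaves, was at 98.5, 110 and 43.6 FPKM in irradiated ATM leaves and at 201, 276 and 227 FPKM in ATM controls, with no overlap. For photosystem I the medians were -0.19, -0.19 and 0.73 in ATM and -2.70 in atr, where one ATM control differed from another by a median of up to 1.00. Lists that were lower in ATM as well included chloroplast ribosomes, with a median of -2.14 in atr, -1.26 in ATM and 0.18 in atm-1, NDH with -2.01, -1.003 and 0.32, the Calvin cycle with -2.35, -0.73 and 0.36, and chlorophyll synthesis with -2.06, -0.52 and 0.29. Without ATM 70 Gy replicate 3 the ATM medians were 0.09 for light harvesting and -0.19 for photosystem I. Without atm-1 control replicate 1, the atm-1 medians were 0.94 for light harvesting, -0.56 for chloroplast ribosomes, -0.51 for NDH and -0.10 for the Calvin cycle. None of these differences between lines was tested, as atr has 1 library a side.

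**Figure D4:**
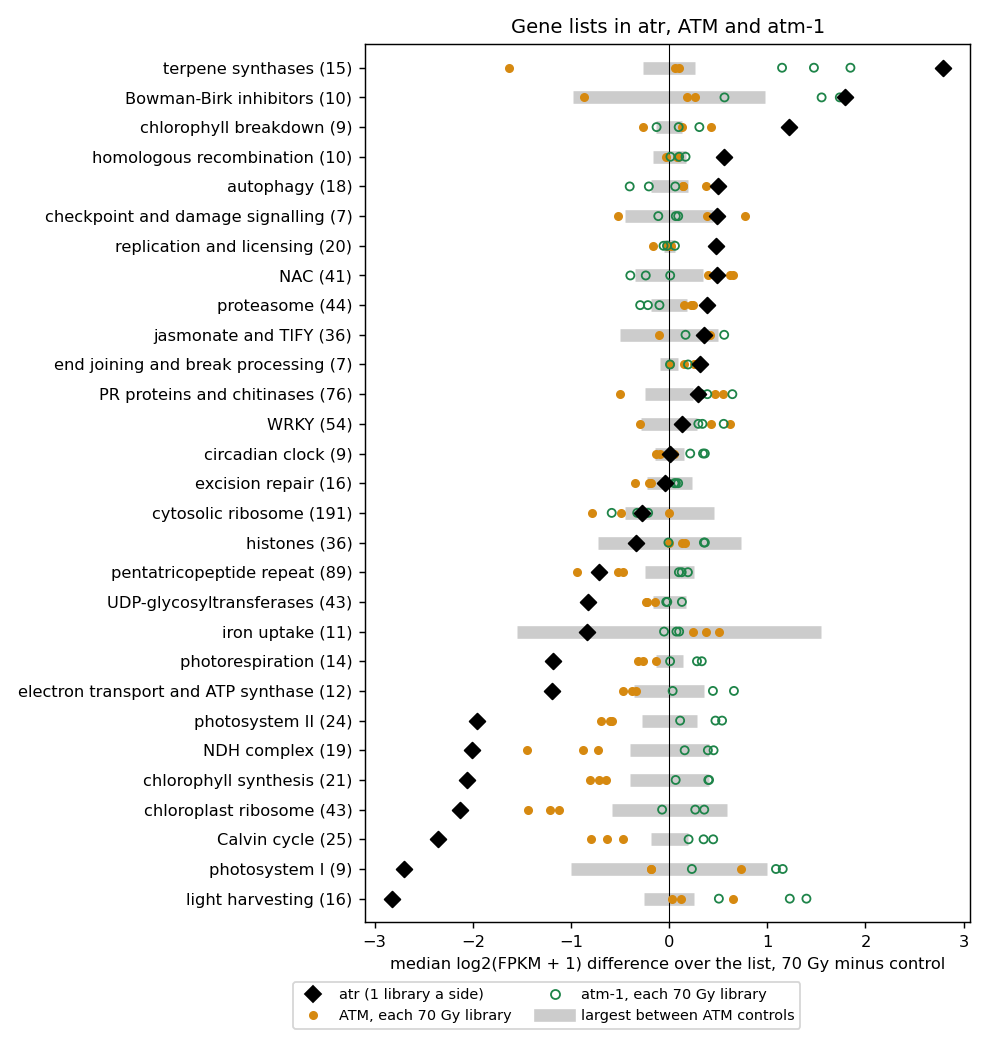
Median log2(FPKM + 1) difference, 70 Gy minus control, over each gene list, with the number of measured genes in brackets: black diamonds are atr, orange dots the ATM and green circles the atm-1 libraries after 70 Gy, each set against the mean of its line's 3 controls. Grey bars span the largest median difference between 2 ATM controls in either direction. Atr stands outside the bar and beyond every ATM library for the photosynthesis lists at the foot and for terpene synthases, at 2.79, at the head.

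Some of the genes that dismantle chlorophyll were higher. Of 9 measured, 4 were higher, 1 was lower and 4 did not pass the limit, with a median of 1.23. SGR (Os09g0532000, chromosome 9, 20868846 to 20871077), STAY-GREEN, which removes magnesium from chlorophyll, was at 157 FPKM in irradiated and 24.5 FPKM in control atr leaves. NYC3 (Os06g0354700), the pheophytinase of the next step, was at 99.8 and 21.9 FPKM, OsPAO (Os03g0146400), which opens the ring, at 60.5 and 18.7 FPKM, and OsRCCR1 (Os10g0389200) at 36.3 and 13.7 FPKM. NYC1 (Os01g0227100), a chlorophyll b reductase, was at 98.0 and 41.3 FPKM, within the ATM control spread. In ATM, SGR had levels of 65.2, 138 and 42.6 FPKM after 70 Gy, against 36.6, 18.0 and 37.3 FPKM in controls, so the irradiated atr value was above all of these. The lower member was Os04g0692600, STAY-GREEN LIKE, at 32.0 FPKM after 70 Gy and 91.0 FPKM in the control.

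Both genes listed for the glyoxylate cycle, which turns lipid carbon into sugar and is active in ageing leaves, were higher. Other enzymes of the cycle were not in that list. Isocitrate lyase (Os07g0529000) was at 151 FPKM in irradiated and 24.8 FPKM in control atr leaves, and malate synthase (Os04g0486950) at 105 and 9.36 FPKM. In ATM isocitrate lyase had levels of 120, 175 and 13.4 FPKM after 70 Gy, against 67.3, 29.0 and 22.1 FPKM in controls, which overlapped. Autophagy genes had 3 of 18 members higher and 0 lower, with a median of 0.50, among them OsATG8b (Os04g0624000), a protein that coats autophagosomes, at 111 and 48.7 FPKM. The proteasome, which degrades tagged proteins, had 6 of 44 higher and 0 lower, with a median of 0.38. Beside these lists, 6.29% of all genes were higher and 12.5% lower. Os05g0490800, a proteasome alpha subunit, was at 91.2 and 14.1 FPKM, while OsPAG1 (Os01g0811100), of the same subunit type, was at 42.7 and 43.6 FPKM.

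The largest positive median of a list of more than 5 genes belonged to terpene synthases, which make volatile and defensive terpenes. Of 15 measured, 11 were higher and 0 lower, with a median of 2.79. Os04g0344100 (chromosome 4, 16349941 to 16354016), a germacrene D synthase, was at 215 FPKM in irradiated and 12.1 FPKM in control atr leaves, and OsTPS31 (Os08g0168000), a zingiberene synthase, at 36.2 and 0.690 FPKM. OsCPS4 (Os04g0178300) and OsKS4 (Os04g0179700), which form diterpene precursors of rice phytoalexins, were at 13.4 and 0.497 FPKM and at 6.24 and 0.146 FPKM. These genes varied between libraries of the other lines: Os04g0344100 was at 70.0, 30.7 and 0 FPKM in irradiated ATM leaves and at 6.09, 19.9 and 0.934 FPKM in ATM controls. The atr control sum of the list, 89.7 FPKM, was below the 178 to 562 FPKM of the ATM controls, whereas the irradiated sum, 450 FPKM, lay within that range. The list median was 0.10, 0.06 and -1.63 in the ATM libraries after 70 Gy and 1.47, 1.15 and 1.85 in the atm-1 libraries, so that it lay above 0 in all 3 of atm-1, and the atm-1 median from mean levels was 1.39, or 1.05 without atm-1 control replicate 1.

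Bowman-Birk inhibitors, small proteins that block digestive proteases and are induced by wounding, had 7 of 10 members higher and 1 lower, with a median of 1.79. IAI2 (Os01g0132000, chromosome 1, 1760310 to 1761065) was at 764 FPKM in irradiated and 82.6 FPKM in control atr leaves. It was at 142, 129 and 24.1 FPKM in irradiated ATM leaves and at 101, 121 and 173 FPKM in ATM controls, all below the irradiated atr value. Several members lie next to each other on chromosome 1 and may share reads. Their list median after 70 Gy was 0.26, 0.18 and -0.87 in the ATM libraries and 1.74, 0.56 and 1.55 in the atm-1 libraries. One ATM control differed from another by a median of up to 0.98. The irradiated atr sum of the list, 1816 FPKM, lay within the 1198 to 2913 FPKM of the ATM controls. The atr control sum, 904 FPKM, was below that range.

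**Figure D5:**
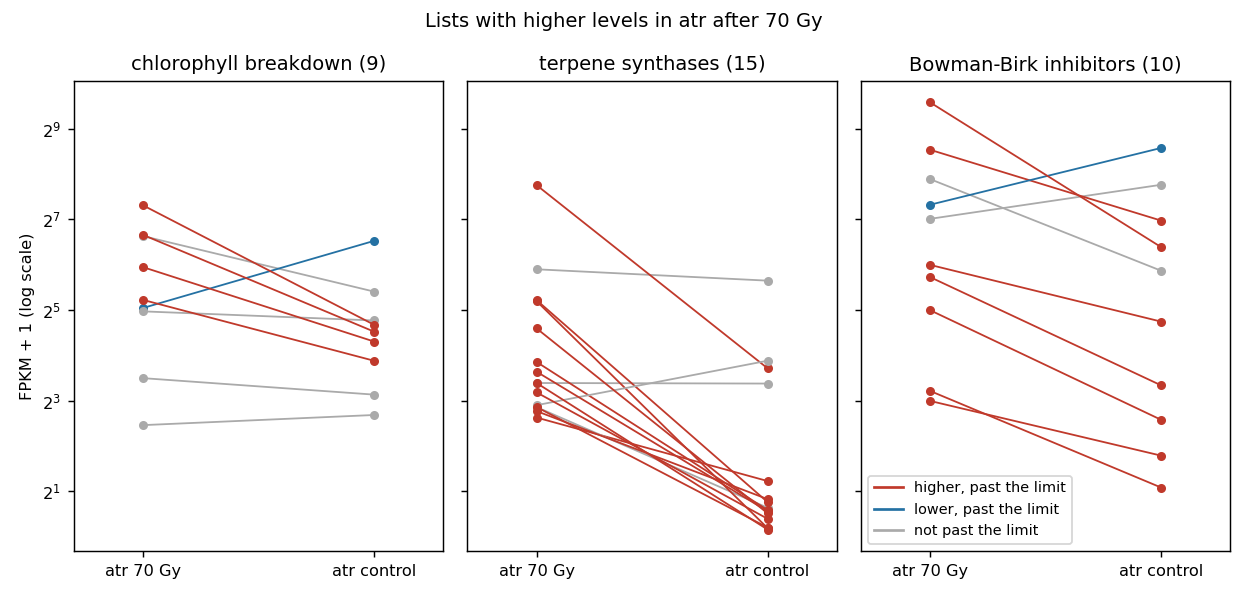
FPKM + 1 on a log scale in the irradiated (left) and control (right) atr library for each measured gene of 3 lists, joined by a line. Red lines are higher and blue lower past the limit; 4 of 9 chlorophyll breakdown, 11 of 15 terpene synthase and 7 of 10 Bowman-Birk genes were higher.

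Other stress and defence families were mixed. Among all genes 6.29% were higher and 12.5% lower. Some lists lay near the higher share, such as protein phosphatases 2C (7.04%) and starch and sucrose genes (6.52%). Class III peroxidases, secreted enzymes that act on phenolics, had 9 of 28 members higher and 4 lower, with a median of 0.44. The peroxidase prx20 (Os01g0962700) was at 170 FPKM in irradiated and 22.9 FPKM in control atr leaves. Untreated leaves had 412, 415 and 400 FPKM of prx20 in top6a3 and 21.4, 114 and 21.7 FPKM in ATM. Pathogenesis-related proteins and chitinases had 11 higher and 10 lower of 76, with OsPR5 (Os03g0661600) at 151 and 5.81 FPKM and TOND1 (Os12g0630100) at 1.73 and 24.5 FPKM. Glutathione S-transferases, which conjugate toxic compounds, had 6 higher and 9 lower of 36. Their median of -0.11 turns to 0.11 when both libraries are brought to the same FPKM sum. Jasmonate and TIFY genes had 6 higher and 4 lower of 36, phenylpropanoid genes 5 and 6 of 43, heat shock genes 6 and 3 of 48, protein phosphatases 2C 5 and 3 of 71, and starch and sucrose genes 3 and 3 of 46. Expansins and xyloglucan enzymes, which loosen cell walls, had 2 and 2 of 18, germin-like proteins 2 and 2 of 10, and genes of abscisic acid synthesis and breakdown 1 and 0 of 4. OsPAL1 (Os02g0627100), phenylalanine ammonia-lyase, the entry to phenylpropanoids, was at 31.2 and 6.29 FPKM.

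In 3 transcription factor families more members were higher than lower, whereas 6.29% of all genes were higher and 12.5% lower. NAC factors had 10 of 41 members higher and 4 lower, with a median of 0.48. ONAC085 (Os05g0194500) was at 73.6 FPKM in irradiated and 14.2 FPKM in control atr leaves. Its mean difference was 3.15 in ATM and -0.80 in atm-1. The atm-1 value rests on control replicate 1, which stood apart. ONAC085 was at 65.1, 7.64 and 2.73 FPKM in atm-1 controls and at 6.23, 7.09 and 5.89 FPKM in irradiated atm-1 leaves. OsNAC6 (Os01g0884300), a stress factor of high level, was at 500.3 FPKM in irradiated and 524 FPKM in control atr leaves. WRKY factors had 13 of 54 higher and 4 lower, with a median of 0.13. OsWRKY104 (Os11g0117400) was at 86.8 and 9.503 FPKM, and WRKY53 (Os05g0343400), at 326 and 277 FPKM, was not past the limit. ERF and DREB factors had 7 of 48 higher and 2 lower, and OsLG3 (Os03g0183000) was at 128 and 4.19 FPKM. OsLG3 was at 86.2, 87.3 and 29.5 FPKM in irradiated ATM leaves and at 42.7, 49.0 and 17.4 FPKM in ATM controls, so the atr control lay below all 6 ATM values. Other untreated leaves had 213, 218 and 185 FPKM in top6a3, 0.309 FPKM in TOP6A3 and 32.3, 97.3 and 3.64 FPKM in atm-1. Both atr values of OsLG3 thus lay within the range of untreated leaves.

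Lists outside photosynthesis also held lower members, beside 12.5% of all genes. UDP-glycosyltransferases, which attach sugars to small molecules, had 15 of 43 lower and 2 higher, with a median of -0.83, and OsUGT75K1 (Os01g0179600) was at 7.85 FPKM in irradiated and 85.3 FPKM in control atr leaves. Iron uptake genes had 4 of 11 lower and 0 higher. OsNAS1 (Os03g0307300), which makes the iron chelator nicotianamine, was at 10.8 and 236 FPKM, OsNAAT1 (Os02g0306401), of the next step to phytosiderophores, at 37.3 and 222 FPKM, and YSL15 (Os02g0650300), which imports iron-phytosiderophore, at 4.06 and 61.4 FPKM. OsNAS1 varied among the ATM controls (46.3, 9.74 and 191 FPKM), and its difference of -4.32 was set against 4.16 between them. OsGLN2 (Os04g0659100), the chloroplast glutamine synthetase, was at 99.0 and 542 FPKM, 1 of 3 lower genes among 13 of nitrogen and sulfur assimilation. Lipid transfer proteins had 2 higher and 5 lower of 19, and wax and cuticle genes 1 and 2 of 22, a lower share (9.09%) under that of all genes. Secondary wall genes, markers of vascular tissue, had 2 higher and 3 lower of 8. The lower OsLAC8 (Os01g0850700), a laccase that polymerises lignin, was at 1.82 and 51.3 FPKM, and the higher OsLAC29 (Os12g0258700) at 56.8 and 10.4 FPKM.

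The largest single rise was that of OsLTP2.9 (Os10g0504900), a lipid transfer protein, at 682 FPKM (6081 reads) in irradiated and 0.473 FPKM (4 reads) in control atr leaves. ATM leaves had 124, 71.1 and 0 FPKM of it after 70 Gy and 19.1, 34.9 and 24.5 FPKM in controls, so the irradiated atr value was above all 6 ATM values and the atr control below all 3 ATM controls. In the other untreated leaves it was at 9.15, 21.1 and 20.3 FPKM in top6a3 and listed at 0 in the library labelled TOP6A3. OsFWL7 (Os03g0830500), described as a cell number regulator, was at 162 FPKM after 70 Gy and listed at 0 in the atr control, at least 777-fold higher when set against 3 reads. OsGABA-T (Os02g0112900), a predicted aminobutyrate transaminase, was at 129 FPKM and listed at 0, at least 1199-fold higher, and OsCYP51H5 (Os02g0113200), a cytochrome P450 encoded near it on chromosome 2, at 60.6 FPKM and listed at 0, at least 518-fold higher. OsGABA-T was listed at 0 in all 12 ATM and atm-1 libraries. JMT-2 (Os02g0719600), a methyltransferase, was at 75.7 and 2.12 FPKM. In all, 12 of the higher genes were listed at 0 in the atr control and 35 of the lower genes were listed at 0 after 70 Gy. Apart from photosynthesis genes, the largest falls included Os01g0191200, described as a stem glycoprotein, at 20.6 FPKM in irradiated and 620 FPKM in control atr leaves. Os12g0501900, a SPIRAL1-like protein, was listed at 0 after 70 Gy and stood at 20.6 FPKM in the control, at least 84.7-fold lower.

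The genes past the limit in atr were set beside those whose 3 irradiated and 3 control libraries did not overlap and differed by a mean of 1 or more in the other lines. In ATM 419 genes (2.66%) were higher and 859 (5.45%) lower by that rule, and in atm-1 428 (2.72%) and 160 (1.02%). Higher in both atr and ATM were 148 genes, 14.9% of the atr and 35.3% of the ATM list, and lower in both were 478 genes, 24.3% and 55.6%. Opposite directions were seen at 22 genes higher in atr and lower in ATM and at 26 the other way round. With atm-1, 38 genes were higher in both, 3.83% of the atr and 8.88% of the atm-1 list, and 11 were lower in both, 0.56% and 6.88%. Opposite directions were more frequent with atm-1. Lower in atr and higher in atm-1 were 98 genes, 4.99% of the atr and 22.9% of the atm-1 list. Higher in atr and lower in atm-1 were 23 genes, 2.32% and 14.4%. The atm-1 calls include control replicate 1, which stood apart. Across the 15754 genes, which are not independent, the differences in atr and ATM had a Pearson's r of 0.36, or 0.33 without ATM 70 Gy replicate 3. Those in atr and atm-1 had an r of -0.20, which became 0.06 without atm-1 control replicate 1. The ATM controls also set the limit in atr, so the ATM comparison is not wholly separate from it.

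The authors' deposited table gave log2 fold changes of atr after 70 Gy for 106 selected genes, 103 of them measured here. The sign was the same for 102, Pearson's r across these genes was 0.99, and the median was -2.25 in the authors' deposited table and -2.14 here. The study has 1 atr library a side, so both sets of values come from the same libraries. Their agreement therefore checks the calculation only and is no independent support. In that selection 81 genes were lower past the limit and 0 were higher. The authors chose these genes, so their direction is not independent of the photosynthesis lists.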

How the data were processed

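The authors deposited FPKM values per gene in separate tables for untreated and 70 Gy leaves, with gene length, per the file headers. For alignment, build and counting, the methods were not given in the sources used here. A strand-marking kit is named in the labels' protocols. Multiplying FPKM by length gave whole multiples of 1 step per library (100% within 0.01), and so the reads per gene. Columns matched to no sample: 0. Reads limit the precision of low genes. The authors also deposited log2 fold changes for selected genes.

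Differences, lists and figures were computed with Python 3.11.15, pandas 2.3.3, numpy 2.4.6 and matplotlib 3.10.9 after adding 1 to each FPKM, which understates changes of low genes. The call rule was tested on simulated data. These were all drawn from the atr control, with less spread than that between the ATM controls, so error rates in the real data were not tested.

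The members and the 53 gene lists, matched by symbol and description, were chosen with earlier results of these data known, and some lists were corrected after values were seen. Candidates for naming were the line-label genes, up to 4 past-limit members per list with 20 FPKM or more, up to 3 of the highest members not past the limit, the 10 largest rises and falls, and all ribonucleotide reductase, PARP and clock members. Not all candidates are printed: PARP2A alone stands for the PARP list, and GI and CCA1 for the clock list. A further member set of that rule is not reported here. Chosen after their values were seen were ONAC050, RAD17, DMC1A, Rad50, the GINS subunit, CycD1, CycD5, PSBS1, PsaN, OsPC, RbcS3, OsChlH, OsCPS4, OsKS4, OsRCCR1, OsPAG1, tRNA-Lys (UUU) and Os03g0165375. Promoter motifs were not examined, as no promoter sequence was used here.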

Additional observations from a re-analysis of the deposited data

Results flagged for a closer look

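Light-harvesting genes had a median log2(FPKM + 1) difference of -2.82 in atr, while all 3 ATM libraries after 70 Gy lay above their controls, by 0.12, 0.03 and 0.65. The first 2 of these lay within the 0.25 by which one ATM control differed from another, and 0.65 came from replicate 3, which stood apart. All 3 atm-1 libraries after 70 Gy did so as well, by 1.23, 1.40 and 0.51. The difference between lines was not tested, since atr has 1 library a side, and so it was for the lists that follow.

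In 7 further lists the atr library and all 3 atm-1 libraries also lay on opposite sides of 0. The atr medians were -1.96 for photosystem II, -2.70 for photosystem I, -1.19 for electron transport and ATP synthase, -2.01 for the NDH complex, -2.35 for the Calvin cycle, -2.06 for chlorophyll synthesis and -1.18 for photorespiration. The atm-1 medians from mean levels were 0.38, 0.96, 0.39, 0.32, 0.36, 0.29 and 0.17 in the same order. Without atm-1 control replicate 1, which stood apart, they were -0.14, 0.61, 0.11, -0.51, -0.10, -0.22 and -0.07.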

How the results depend on the processing

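The 991 higher and 1964 lower genes changed as follows. With a pseudocount of 5, 612 were higher; at a minimum of 20 FPKM, 526 were higher and 1189 lower, out of fewer genes measured. With both libraries rescaled to the same FPKM sum, 1623 were higher. With a noise scale from the 95th percentile of genes of like level, 326 were higher and 1038 lower, and at a difference of 2, 212 and 628. The cause of the shift with the pseudocount and with rescaling was not tested. Leaving out each ATM control in turn gave 1041 to 1158 higher and 2039 to 2239 lower. The other settings (pseudocount 0.1, minimum of 1 FPKM, no minimum, median rescaling, top6a3 controls as noise scale, no noise scale) kept both counts within 1.5 times. The number of lists with a median of 1 or more in size was 15 of 53, and 12 to 20 under the settings tried. Medians near 0 changed sign with rescaling or the minimum, among them PARP and mismatch repair, while the 9 photosynthesis lists kept their sign in all of these. Leaving out ATM 70 Gy replicate 3, atm-1 control replicate 1 or the TOP6A3 control was added after seeing the data. No paired analysis was possible because the result comes from no test. With 1 library a side, depth limits low genes: 4 reads of OsLTP2.9 and 7 reads of ATR carry counting error that no replicate bounds.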

Other observations

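Some genes were detected in atr leaves at either dose and hardly at all in the ATM and atm-1 lines. There were 767 genes measured in atr but under 1 FPKM in all 12 ATM and atm-1 libraries. Of these, 638 (83.2%) reached 5 FPKM in at least 1 TOP6A3 or top6a3 library, and 574 (74.8%) in the top6a3 libraries alone. The same share of all measured genes was not taken, so whether 83.2% is high was not tested. Past the limit, 58 of the 767 were higher and 219 lower, beside 6.29% and 12.5% of all genes. The ATM controls set no bound for these 767 genes, so their counts are not directly comparable with those shares. A further 69 genes were under 1 FPKM in both atr libraries and at 5 FPKM or more in all 12 ATM and atm-1 libraries. Across genes, the atr control correlated at 0.94 with the library labelled TOP6A3 control and at 0.93 with each top6a3 control, against 0.89 to 0.90 with the ATM controls, given as a description. The level of OsTOP6A3 goes against the label of the TOP6A3 library.

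By chromosome, the share of measured genes that were higher past the limit ran between 4.86% on chromosome 6 and 7.53% on chromosome 4. The share that were lower ran between 11.3% on chromosome 4 and 14.6% on chromosome 10.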
